A study of Mus musculus with 4 samples.

Results

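The genes described here encode the proteins of the cytosolic ribosome, in whole amygdala of male C57BL/6J mice. They were taken by name from the array annotation, as every gene whose symbol has the form Rpl or Rps followed by a number, with or without a letter or a closing l, and with a probe that the scanner software marked well above background on 3 or 4 arrays of some group. The names matched 79 genes with 138 probes, and 78 genes with 133 probes passed, out of 19463 genes and 28347 probes that passed the same filter. Rpl39l, the testis-enriched paralog of Rpl39, was the 1 gene left out. The better of its probes was well above background on 2 of 4 arrays in each LPS group and on 1 of 4 in each saline group. At the other side of the filter stood Rpl3l, well above background on 2 of 4 arrays in each knockout group and on all 4 in each wild-type group.

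The mice were 10 weeks old and either lacked the P2X7 receptor (P2X7R KO; the receptor is a cation channel opened by ATP, and P2rx7 is its gene) or were wild type (WT). Each genotype received an intraperitoneal injection of lipopolysaccharide (LPS, from the outer membrane of Gram-negative bacteria, which sets off an innate immune response) or of sterile saline, and the tissue was taken after 6 h. The labels state the LPS dose both as 7.5 µg per mouse and as 250 µg/kg, with 4 mice in each of the 4 groups. Every group had 4 one-colour arrays, 16 in all, which the labels do not tie to single mice, so that p-values measure the spread between arrays, which may in part be technical. The study's question was how loss of the receptor changes amygdala transcripts at rest and under an immune challenge.

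Ribosomal proteins, with the ribosomal RNAs, form the large (Rpl) and the small (Rps) subunit of the ribosome, and almost all of them are made in every cell in matched amounts. Their mRNAs are among the most abundant of the cell and carry a terminal oligopyrimidine tract at the start, through which the kinase mTORC1 and the RNA-binding protein Larp1 set their translation. In neurons they are also found in dendrites and axons, where they serve local protein synthesis. The mouse genome holds many processed pseudogene copies of these genes, whose sequence can be close enough to bind the same probe, and cross-hybridisation was not tested here.

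Levels are log2 intensity relative to the 75th percentile of the same array, and differences are log2 differences ± SE from limma, with n = 4 arrays per group unless stated. Knockout arrays filled slides and a scan session of their own, as did wild-type arrays, so genotype, slide and scan session cannot be told apart in any difference between genotypes. The slope of the spike-in dose response, which the scanner software fits to RNA added in known amounts, was 0.940 to 0.995 on the 8 knockout arrays and 0.819 to 0.910 on the 8 wild-type arrays. The 10 spike-in probes differed in level between knockout and wild type by −0.04 to 2.31 after saline and by −0.34 to 2.24 after LPS, and the part of these shifts in the ribosomal values was not tested, apart from the slope correction given below. Of the 2 P2rx7 probes, 1 was at −0.80, −0.91, −1.57 and −1.08 on knockout saline arrays, against −0.15, 0.14, 0.79 and 0.90 on wild-type saline arrays (−1.51 ± 0.25, adjusted p = 0.000211, limma). The other P2rx7 probe did not pass the threshold after saline (difference 0.24 ± 0.29, adjusted p = 0.51, limma), and since the labels do not say which part of the gene was deleted, neither probe settles the genotype. Arrays 1 and 2 of the group labelled wild-type saline went against their label, since the mean level of 13 LPS-response genes was 1.12 and 1.33 there, against −3.97 and −4.05 on arrays 3 and 4. The same 13 genes lay at 0.08 to 1.74 in wild-type LPS, at 1.74 to 1.97 in knockout LPS and at −3.88 to −3.55 in knockout saline. For genes, comparisons that use the wild-type saline group therefore also have counts of calls, medians and the largest differences given without those arrays. Counts by fold, by overlap of arrays and by probe were made with all arrays. All 7 amygdala markers on the array were well above background on all arrays.

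After saline, most ribosomal protein genes stood above their wild-type level in knockout amygdala. Of the 78 genes, 65 were called higher and 3 lower at an adjusted p under 0.05, and 10 did not pass the test. Over all 19463 genes, 28.6% were called higher and 22.3% lower in the same comparison. The median difference was 1.25 (2.38-fold) for the ribosomal protein genes and 0.07 for all genes. In 65 of them every knockout array lay above every wild-type array, against 25.9% of all genes, and in 2, Rpl4 and Rps3a, every knockout array lay below, against 20.3% of all genes. A difference of at least 2-fold was found in 51 genes and one of at least 4-fold in 7, with all wild-type saline arrays in use. The share of all genes at these cuts was not counted. Without wild-type saline arrays 1 and 2, Rpl6, Rpl30, Rps27a and Rpl15 stayed above 4-fold. Rps12, Rps19 and Rpl11 did not, at 1.89, 1.84 and 1.53 on the log2 scale. The median level of the 78 genes was 6.26, 5.89, 5.81 and 5.62 on the 4 knockout saline arrays, against 4.46, 4.48, 4.76 and 4.68 on the 4 wild-type saline arrays, with no overlap. In whole tissue, a change in the number of cells of a type and a change in RNA per cell cannot be told apart.

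**Figure D1:**
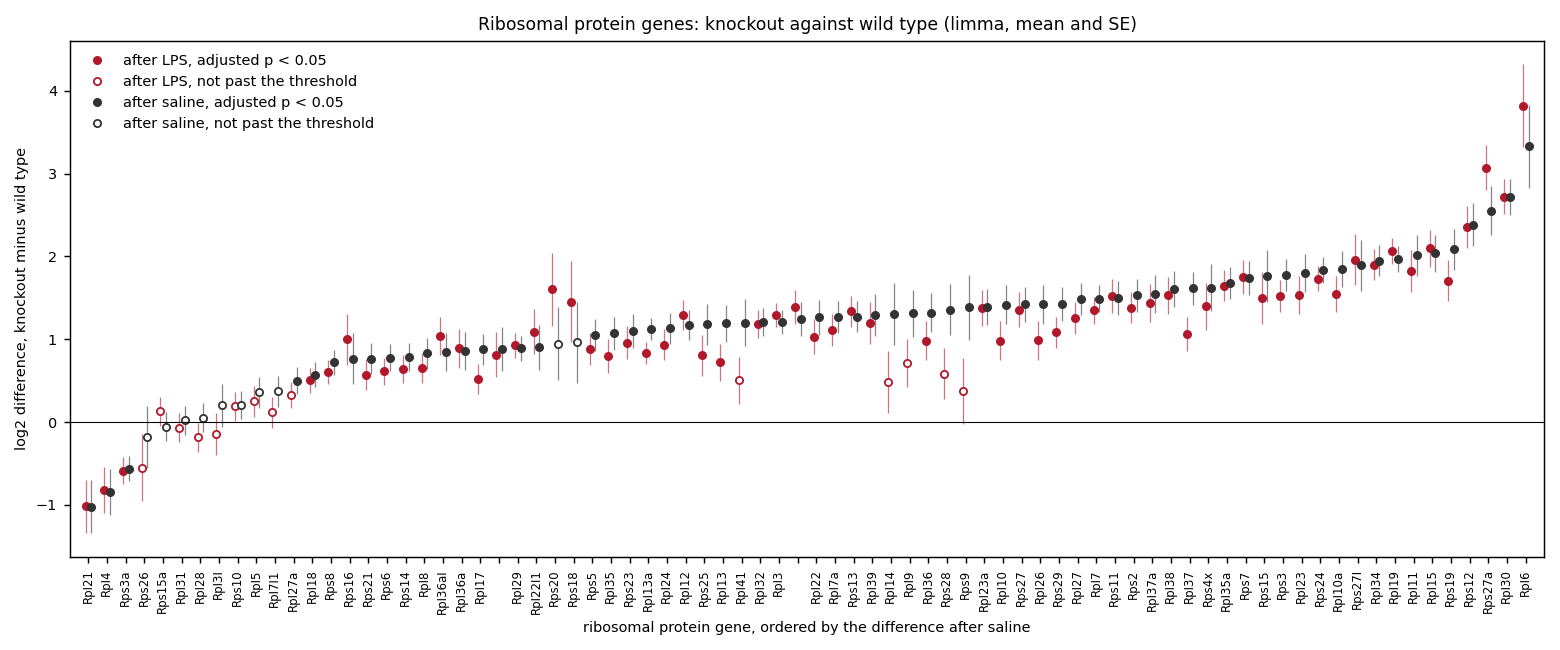
Differences between genotypes for the 78 ribosomal protein genes, as log2 of knockout minus wild type with SE bars from limma, after LPS (red) and after saline (black), with some gene names left off the axis. Filled points passed an adjusted p of 0.05. After saline 65 genes lie above 0 with filled points and 3 below, and the differences run between −1.02 for Rpl21 and 3.33 for Rpl6.

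Rpl6, a large-subunit protein, had the largest difference of all members. Its level was 6.75, 5.93, 5.80 and 5.59 on knockout saline arrays, against 2.92, 1.40, 3.55 and 2.90 on wild-type saline arrays, a difference of 3.33 ± 0.50 (adjusted p = 9e-05, limma). The groups did not overlap, and the wild-type arrays were spread over more than the knockout arrays. Its probe lies at chr5:121658564-121658829 (mm9, plus strand) and crosses an exon junction, 1.48 Mb from the P2rx7 probe on the same chromosome. Rpl5, the next nearest member on chromosome 5, lay 14.8 Mb away. A second Rpl6 probe, just upstream in the genome, differed by 1.65 ± 0.19 (adjusted p = 7.54e-06).

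Rpl30, a small protein of the large subunit that in yeast binds its own transcript, came next. It was at 5.44, 5.39, 4.84 and 5.07 in knockout saline, against 2.25, 2.15, 2.99 and 2.49 in wild-type saline, 6.57-fold higher (log2 2.72 ± 0.22, adjusted p = 3.26e-07, limma). Rps27a encodes ubiquitin fused to a small-subunit protein and is 1 of the sources of free ubiquitin in the cell. It was at 6.96, 6.61, 6.25 and 6.23 in knockout saline, against 3.29, 4.38 and 4.21 in wild-type saline, where the spot on array 2 was marked as an outlier and left out of the fit. Even the highest wild-type array of both genes was below the lowest knockout array. Rps12, a small-subunit protein, differed by 2.38 ± 0.26 (adjusted p = 5.07e-06), with 7.80, 7.83, 7.36 and 7.62 in knockout saline and 5.07, 4.48, 5.85 and 5.68 in wild-type saline.

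The other members among the 10 largest differences after saline were Rps19, Rpl15, Rpl11, Rpl19, Rpl34 and Rps27l. Rps19, the gene most often mutated in human Diamond-Blackfan anaemia, a failure of red cell production, was 4.24-fold higher (log2 2.09 ± 0.25, adjusted p = 1.37e-05, limma). Rpl11, which can bind the p53 regulator Mdm2 when free of the ribosome, was 4.04-fold higher in knockout (log2 2.01 ± 0.25). Rps27l, a paralog of Rps27 that p53 induces in human cells, was at 2.80, 3.03, 2.67 and 2.58 in knockout saline, against 0.63, 0.07, 1.59 and 1.22 in wild-type saline (log2 difference 1.89 ± 0.31). Rpl15, Rpl19 and Rpl34, all of the large subunit, differed by 2.04, 1.97 and 1.95 on the log2 scale, and their arrays did not overlap between genotypes.

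Rpl21, Rpl4 and Rps3a were the 3 members called lower in knockout after saline. Rpl4, a large-subunit protein that lines part of the exit tunnel for the nascent chain, was at 0.93, 1.42, 1.94 and 2.03 in knockout saline, against 2.39, 2.44, 2.41 and 2.47 in wild-type saline, and fell by 0.85 on the log2 scale (SE 0.28, adjusted p = 0.0184, limma). Its wild-type saline arrays lay within 0.08 of each other, while its knockout arrays were spread over more than 1. Without knockout saline array 1 its adjusted p was 0.0576, and without wild-type saline arrays 1 and 2 it was 0.0765. Rpl21, of the large subunit, was at 1.20, 0.28, 0.88 and 0.86 in knockout saline, against 0.78, 1.52, 2.69 and 2.30 in wild-type saline, and the groups overlapped. It fell by 1.02 (SE 0.32, adjusted p = 0.0158), which became an adjusted p of 0.0521 without knockout saline array 2, 0.0548 without wild-type saline array 3 and 0.051 without wild-type saline array 4. The second Rpl21 probe was called in the other direction (log2 0.42), as given with the probes below. Rps3a (Rps3a1 in the current RefSeq table), a small-subunit protein, was at 4.52, 4.83, 5.02 and 4.85 in knockout saline and 5.52, 5.41, 5.24 and 5.29 in wild-type saline (log2 difference −0.56 ± 0.15, adjusted p = 0.0071). Its adjusted p was 0.0725 without wild-type saline arrays 1 and 2, and its second probe went the other way, as given with the probes below.

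**Figure D2:**
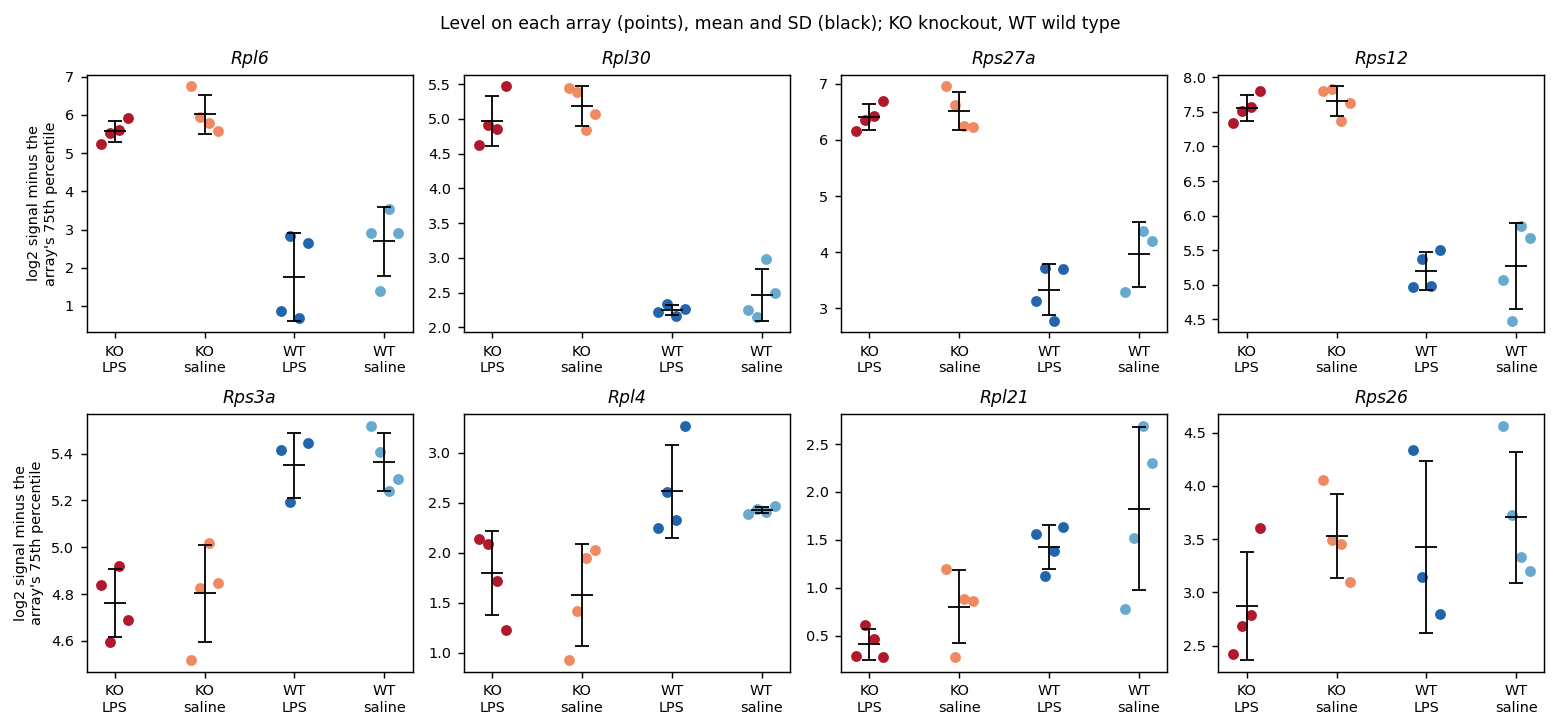
Levels of 8 ribosomal protein genes on each array (points; log2 intensity minus the 75th percentile of the array) with mean and SD in black, for knockout LPS, knockout saline, wild-type LPS and wild-type saline. Rpl6, Rpl30, Rps27a and Rps12 are higher on every knockout array, Rps3a and Rpl4 lower, and Rpl21 and Rps26 overlap between the saline groups.

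The 10 members that did not pass the test after saline were Rpl28, Rpl31, Rpl3l, Rpl5, Rpl7l1, Rps10, Rps15a, Rps18, Rps20 and Rps26. Their differences ran between −0.18 for Rps26 and 0.96 for Rps18, a value that turns on 1 array. Knockout saline array 4 was at 4.91 for Rps18, against 7.68 to 8.06 on the other 3 arrays, and at 4.86 for Rps20, against 7.35 to 7.55. Without it Rps18 was higher by 1.69 ± 0.20 (adjusted p = 2.52e-05, limma) and Rps20 by 1.59 ± 0.20 (adjusted p = 4.64e-05). Rps26, which lies where mRNA leaves the ribosome, was at 4.05, 3.49, 3.46 and 3.10 in knockout saline, against 4.57, 3.73, 3.33 and 3.20 in wild-type saline, with full overlap. Rpl5, which with Rpl11 can bind Mdm2, differed by 0.36 ± 0.19 (adjusted p = 0.118, limma), and without knockout saline array 1 it was called, at 0.48 (adjusted p = 0.0357). The test of Rpl11 against Rpl5 was not run. Rps16, a small-subunit protein, was called only narrowly (log2 0.76 ± 0.31, adjusted p = 0.0493), and its adjusted p ran from 0.00555 to 0.115 when single arrays were left out. Without wild-type saline arrays 1 and 2, 59 members were called higher and 1 lower, in a fit that called 19.8% and 16% of all genes, and the median difference was 1.06. In that fit the difference was 2.80 ± 0.55 for Rpl6, 2.45 ± 0.25 for Rpl30, 2.22 ± 0.29 for Rps27a and 1.89 ± 0.22 for Rps12, all with an adjusted p under 0.05 (limma). Rps19, Rpl11 and Rps27l were higher by 1.84, 1.53 and 1.36, and Rpl21 fell by 1.69 (adjusted p = 0.000297).

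After LPS the same comparison gave 61 members higher and 3 lower in knockout, while 14 did not pass. Among all genes 25.9% were called higher and 21.2% lower. Without knockout LPS array 4, Rpl13, Rpl17, Rps18 and Rps21 were not called (adjusted p of 0.0605, 0.0767, 0.0594 and 0.0692, limma). The median difference was 1.03 (2.05-fold) for the members and 0.05 for all genes. In 59 members all knockout LPS arrays lay above all wild-type LPS arrays, against 28.3% of all genes, and in 3, Rpl21, Rpl4 and Rps3a, they all lay below, against 23.6% of all genes. Median levels of the 78 genes were 5.41, 5.52, 5.62 and 5.88 on the 4 knockout LPS arrays, against 4.56, 4.48, 4.39 and 4.60 on the 4 wild-type LPS arrays. With levels divided by the spike-in slope of the array, 47 were higher and 3 lower after saline (median 0.75), where the same fit called 28.4% of all genes higher and 21.4% lower. After LPS 32 were higher and 5 lower with that correction (median 0.57), against 26.5% and 20.8% of all genes. Rpl22l1, Rpl36a, Rpl41, Rps16, Rps28 and Rps6 were among the members called after saline without the slope correction and not with it.

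**Figure D3:**
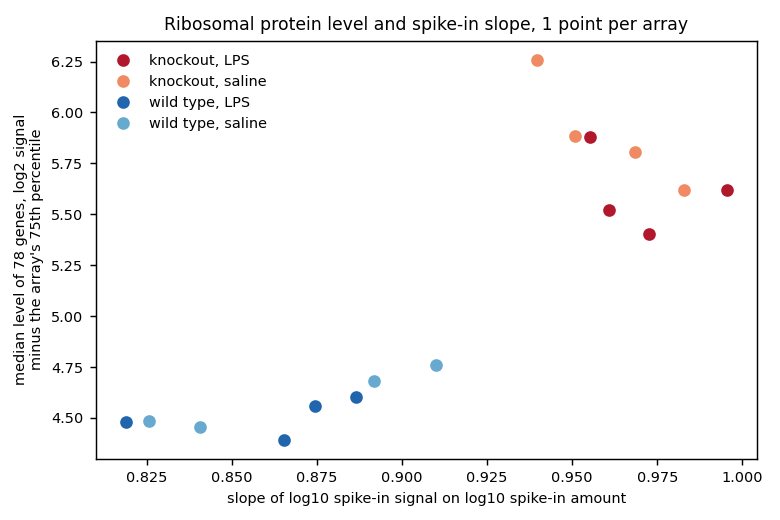
Median level of the 78 ribosomal protein genes on each array (vertical axis, log2 intensity minus the 75th percentile of the array) against the spike-in slope of that array as given by the scanner software (horizontal axis), 1 point per array. Knockout arrays lie at slopes of 0.940 to 0.995 with median levels of 5.41 to 6.26, and wild-type arrays at 0.819 to 0.910 with 4.39 to 4.76.

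Rpl6 was again the member with the largest difference after LPS. It was at 5.25, 5.53, 5.61 and 5.92 on knockout LPS arrays, against 0.86, 2.84, 0.69 and 2.65 on wild-type LPS arrays (log2 3.82 ± 0.50, adjusted p = 3.03e-05, limma). The wild-type LPS arrays fell in 2 pairs: arrays 1 and 3 (slide 1) were below 1 and arrays 2 and 4 (slide 2) above 2.6. Rps27a was at 6.15, 6.35, 6.42 and 6.70 in knockout LPS, against 3.13, 3.71, 2.78 and 3.71 in wild-type LPS, 8.41-fold higher (log2 3.07 ± 0.28, adjusted p = 1.72e-06). Rpl30 differed by 2.72 ± 0.22 and Rps12 by 2.35 ± 0.26, within 0.04 of their differences after saline. Rps7, a small-subunit protein that entered the 10 largest after LPS in place of Rps19, was at 6.29, 6.71, 6.49 and 7.12 in knockout LPS and 4.94, 5.02, 4.83 and 4.81 in wild-type LPS (log2 1.75 ± 0.20). Rps3a, Rpl4 and Rpl21 were called after LPS too and fell by 0.59, 0.82 and 1.02 on the log2 scale, with wild-type LPS array 3 of Rps3a left out as an outlier. Rpl4 after LPS had an adjusted p of 0.0232, which was 0.0518, 0.0836 and 0.0787 without knockout LPS array 3, knockout LPS array 4 or wild-type LPS array 4.

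Across both treatments 59 members were higher and 3 lower in each genotype comparison, and 8 were called in neither. The share of all genes called in both was not counted. Each comparison alone called 28.6% of all genes higher and 22.3% lower after saline, and 25.9% and 21.2% after LPS. Among the members, Rpl41, Rpl9, Rpl14, Rps28, Rps9 and Rpl27a passed after saline only, and Rps18 and Rps20 after LPS only. Single arrays decided several of these. Rps18 and Rps20 were called after saline too without knockout saline array 4 (adjusted p of 2.52e-05 and 4.64e-05, limma). After LPS, Rpl9 and Rpl14 were called without wild-type LPS array 3 (1.08 and 0.89, adjusted p of 0.000642 and 0.0318), and Rps9 without wild-type LPS array 1 (0.91, adjusted p = 0.00732). Rpl27a was not called after saline without wild-type saline array 1 or array 2 (adjusted p of 0.0564 and 0.0538). None of these 8 was called in the test of the difference between the comparisons, in which the 78 members had no call in either direction. Among these 8, Rps9, a small-subunit protein that in yeast bears on decoding accuracy, had the smallest p there (−1.01 on the log2 scale, unadjusted p = 0.0911, adjusted p = 0.806, limma). Its wild-type LPS arrays were at 4.89, 2.92, 2.21 and 3.06, so that 1 array stood far above the other 3. Without wild-type saline arrays 1 and 2 the difference of Rps9 after saline had an adjusted p of 0.0785.

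Both subunits were represented among the calls. Over all genes 28.6% were called higher and 22.3% lower after saline, and 25.9% and 21.2% after LPS. Of 47 large-subunit genes, 40 were higher and 2 lower after saline (median 1.21), and 36 and 2 after LPS (median 0.98). Of 31 small-subunit genes, 25 were higher and 1 lower after saline (median 1.27), and the counts after LPS were the same (median 1.34). Among 18 genes mutated in Diamond-Blackfan anaemia, 14 were higher after saline (median 1.42) and 13 after LPS (median 1.17), with none lower. Of 11 members with known roles outside the ribosome, such as Rpl5, Rpl11, Rpl13a, and Rps3, which also acts in DNA repair and NF-κB signalling, 10 were higher in both. With wild-type saline arrays 1 and 2 left out, 19.8% of all genes were called higher and 16% lower. Of the large-subunit genes 36 were higher and 1 lower there (median 1.08), and of the small-subunit genes 23 were higher (median 1.04). In that fit 14 of the Diamond-Blackfan genes (median 1.10) and 10 of the 11 with outside roles (median 1.33) were higher. Rpl13a, which in human myeloid cells leaves the ribosome after interferon gamma and silences inflammatory mRNAs, was at 5.76, 5.67, 5.56 and 5.79 in knockout saline, against 4.55, 4.50, 4.57 and 4.67 in wild-type saline (log2 1.12 ± 0.13, adjusted p = 1.05e-05, limma).

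Paralogs are given beside their parent genes, and 3 of the 5 were called higher in both genotype comparisons, and 1 of 5 after saline without wild-type saline arrays 1 and 2. Among all genes 28.6% were called higher after saline, 25.9% after LPS and 19.8% after saline without those arrays. Rps27l and its parent Rps27 were both higher in knockout after saline, by 1.89 ± 0.31 and 1.42 ± 0.21. Rpl22l1, whose mRNA Rpl22 holds down in mice, and Rpl22 differed by 0.90 ± 0.27 (adjusted p = 0.0122, limma) and 1.26 ± 0.21 (adjusted p = 0.000228). Without wild-type saline arrays 1 and 2 the adjusted p of Rpl22l1 was 0.0553. Rpl36al and Rpl36a encode nearly the same protein from separate genes and differed by 0.84 ± 0.23 and 0.86 ± 0.23. Rpl36al was not past the threshold without wild-type saline arrays 1 and 2 (adjusted p = 0.0529). Rpl3l, the striated muscle form of Rpl3, was dim, at −4.41, −4.68, −4.38 and −4.63 in knockout saline and −4.88, −4.81, −4.59 and −4.61 in wild-type saline, with overlapping arrays (log2 difference 0.20 ± 0.26, adjusted p = 0.535). Its parent Rpl3, which forms part of the peptidyl transferase region, was at 5.82, 5.47, 5.81 and 5.83 in knockout saline, against 4.47, 4.49, 4.69 and 4.44 in wild-type saline (log2 1.21 ± 0.15). Rpl7l1, a paralog of Rpl7, differed by 0.37 ± 0.19 (adjusted p = 0.108), and Rpl7 by 1.49 ± 0.16 (adjusted p = 5.98e-06). Rpl39, a very short protein of the exit tunnel, was higher by 1.29 ± 0.25.

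Probes of 1 gene often gave different sizes. Of the 78 genes, 43 had more than 1 kept probe, which made 55 pairs of the brightest probe with another. In 38 of these pairs the difference between genotypes after saline was not the same for both probes at an adjusted p under 0.05, and in 36 after LPS (limma on the within-array difference of the probes, adjusted over 8884 such pairs of all genes). Among all pairs 51.5% differed after saline and 48.9% after LPS. The median range over the probes of a gene was 1.27 for the members and 1.05 for all genes with more than 1 kept probe after saline. In 6 of the 43 genes (Rpl11, Rpl21, Rps12, Rps24, Rps3a and Rps6) probes were called in opposite directions after saline, which is 14%, against 14.6% of all such genes. After LPS this held for 3 of the 43 (Rpl11, Rps3a and Rps6), which is 6.98%, against 13.5% of all such genes.

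**Figure D4:**
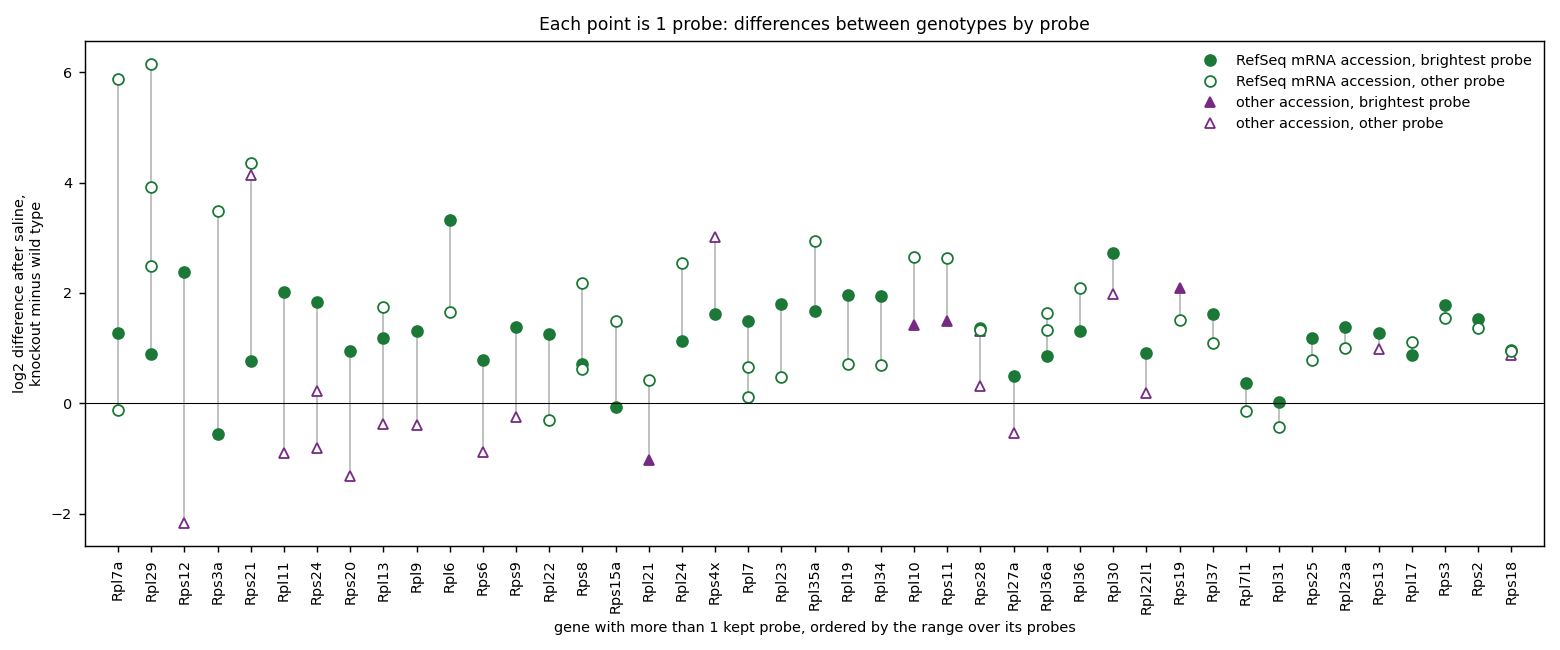
Differences between genotypes after saline (vertical axis, log2 of knockout minus wild type) for every kept probe of the 43 genes with more than 1, ordered by their range. Green circles are probes with a RefSeq mRNA accession and purple triangles are other accessions, filled for the brightest probe of the gene. The point at 6.15 is Rpl29 probe 2, which was well above background on 2 of 4 arrays in each wild-type group, the other probes of Rpl29 lie lower, down to 0.89, and those of Rps3a lie at −0.56 and 3.49.

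Probes were also counted by the kind of accession the array annotation gives them. Of 111 probes with a RefSeq mRNA accession, 93 were higher and 2 lower after saline, with a median difference of 1.27, in a fit that called 26.5% of all probes higher and 25.5% lower. Of 22 probes with another accession, 8 were higher and 6 lower (median 0.21), and after LPS 7 and 3, where 24.0% of all probes were called higher and 24.4% lower. The 6 lower after saline were probes of Rpl11, Rpl21, Rps12, Rps20, Rps24 and Rps6, and that of Rpl21 was the brightest of its gene. Of the probes called higher, 1 of Rpl29 (RefSeq mRNA accession) and 1 of Rps4x (another accession) had passed the filter only through the knockout groups. Of 42 probes whose coordinates span more than 60 bases and thus cross an exon junction, 36 were higher and none lower after saline, and 32 and none after LPS. GC content ranged from 28.3% to 75% over the 133 probes, and its Spearman correlation with the difference after saline was −0.03 across them (0.24 across all 28347 probes, which are not independent replicates).

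The probes of Rpl29, Rpl7a, Rps3a, Rpl10 and Rpl6 are shown because their differences between genotypes were far apart or, for Rpl6, because its brightest probe had the largest difference among the brightest probes of the 78 genes. Each is a 60-base probe in the sense of the transcript, 5′ to 3′, and capitals mark a stretch that another probe of the same gene also covers.
Rpl29 probe 1: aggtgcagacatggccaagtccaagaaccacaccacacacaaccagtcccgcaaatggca
Rpl29 probe 2: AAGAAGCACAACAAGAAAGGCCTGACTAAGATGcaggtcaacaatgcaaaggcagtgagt
Rpl29 probe 3: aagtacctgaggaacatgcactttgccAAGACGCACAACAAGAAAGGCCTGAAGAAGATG
Rpl29 probe 4: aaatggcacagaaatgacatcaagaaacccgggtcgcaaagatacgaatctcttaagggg
Rpl7a probe 1: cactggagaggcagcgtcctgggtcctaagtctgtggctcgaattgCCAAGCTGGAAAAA
Rpl7a probe 2: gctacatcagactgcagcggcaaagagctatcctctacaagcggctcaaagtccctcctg
Rpl7a probe 3: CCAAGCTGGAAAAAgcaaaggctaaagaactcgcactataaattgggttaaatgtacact
Rps3a probe 1: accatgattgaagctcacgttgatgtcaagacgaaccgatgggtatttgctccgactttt
Rps3a probe 2: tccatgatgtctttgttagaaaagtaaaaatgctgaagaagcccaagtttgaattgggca
Rpl10 probe 1: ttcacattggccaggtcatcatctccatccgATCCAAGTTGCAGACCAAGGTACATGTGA
Rpl10 probe 2: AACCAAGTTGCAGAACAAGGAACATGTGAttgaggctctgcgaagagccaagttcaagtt
Rpl6 probe 1: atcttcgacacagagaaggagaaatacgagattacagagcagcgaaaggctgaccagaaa
Rpl6 probe 2: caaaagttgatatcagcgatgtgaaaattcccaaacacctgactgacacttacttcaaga

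Rpl29, a lysine-rich large-subunit protein that also binds heparan sulfate, had 4 probes on the plus strand of chromosome 9 (mm9). Probe 1, at chr9:106331969-106332651 across a junction, was the brightest, with 4.09, 3.73, 3.73 and 3.83 on knockout saline arrays and 2.77, 3.16, 3.02 and 2.86 on wild-type saline arrays (log2 difference 0.89 ± 0.16). Probe 2, at chr9:106333436-106333495, was at 1.78, 1.44, 1.81 and 1.52 in knockout saline, against −6.99, −7.07, −1.58 and −2.40 in wild-type saline, where it was well above background on 2 of 4 arrays. This probe passed the filter only through the knockout groups, so its difference of 6.15 ± 1.14 is a description, and the wild-type arrays were split by slide. In wild-type LPS it was at −6.32, −2.17, −5.54 and −2.31, again well above background on 2 of 4 arrays, and the low arrays of both wild-type groups are those of slide 1. Probe 3, at chr9:106333409-106333468, was well above background on all arrays and differed by 3.92 ± 0.41, and probe 4, at chr9:106332644-106332703, by 2.49 ± 0.29. Probes 2 and 3 share 33 bases by position, of which 3 differ. With positions counted from 1 at the 5′ end of probe 2, and the base of probe 2 written first, these are A5C, C26A and T27G. Which of these bases the transcripts of either genotype carry was not examined here.

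Rpl7a, a large-subunit protein, had 3 probes well above background on every array. Probe 1, at chr2:26768694-26768753 (mm9, plus strand), differed by 1.27 ± 0.20 after saline (adjusted p = 0.000112, limma). Probe 2, at chr2:26766993-26767052, was at 4.06, 4.17, 4.32 and 4.40 in knockout saline and 4.00, 4.20, 4.49 and 4.69 in wild-type saline, and did not pass the threshold (−0.11 ± 0.17, adjusted p = 0.612). Probe 3, at chr2:26768740-26768798, was at 6.37, 5.89, 5.74 and 5.54 in knockout saline, against −2.28, −2.23, 2.70 and 1.81 in wild-type saline, a difference of 5.88 ± 0.92 (adjusted p = 0.000121). Here too the 4 lowest wild-type arrays were those of slide 1, with −0.61, 1.62, −0.47 and 1.72 in wild-type LPS, where arrays 1 and 3 are on slide 1. Probes 1 and 3 share 14 bases, all equal, and the genome coordinates of probe 3 span 59 bases for a probe of 60.

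Rps3a had a pair of probes on the minus strand of chromosome 3 (mm9), called in opposite directions. Probe 1 gave 4.52, 4.83, 5.02 and 4.85 in knockout saline and 5.52, 5.41, 5.24 and 5.29 in wild-type saline. Probe 2, at chr3:85942027-85942458 across a junction, gave 3.92, 3.64, 3.74 and 3.63 in knockout saline, against 0.40, −0.15, 0.41 and 0.32 in wild-type saline, and was higher by 3.49 ± 0.22 (adjusted p = 3.68e-08, limma). For probe 1 the file's coordinates, chr3:85941868-85941892, cover 25 of its 60 bases. With the mean of both probes in place of the brightest, Rps3a was higher in knockout, by 1.46 after saline (adjusted p = 0.0253) and by 2.13 after LPS (adjusted p = 0.00317).

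Rpl10, which joins the large subunit late in its assembly, had its brightest probe placed by the files at chr8:96747278-96747337 (mm9, plus strand) under an accession that is not a RefSeq mRNA. Its other probe, at chrX:71518098-71518157, carries the RefSeq mRNA accession. Probe 1 differed by 1.42 ± 0.24 after saline and probe 2 by 2.65 ± 0.26. Over a shared stretch of 29 bases the probes differ at 3, written T33A, C46A and T52A with positions counted from 1 at the 5′ end of probe 1 and its base first. Both probes were higher in knockout after LPS as well, by 0.98 and 2.20.

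In Rpl11, Rps12, Rps24 and Rps6 the probe called lower was one without a RefSeq mRNA accession and not the brightest, and in Rpl21 it was the brightest. Rps12 gave 2.38 ± 0.26 with the RefSeq probe and −2.17 ± 0.52 with the other probe, which lies at chr10:23506043-23506102 (mm9, minus strand), outside the position of the RefSeq probe at chr10:23505016-23505075. Rpl11 gave 2.01 ± 0.25 with the RefSeq probe and −0.89 ± 0.15 with the other. Rpl21 gave 0.42 ± 0.15 with the RefSeq probe (adjusted p = 0.0307, limma) and −1.02 ± 0.32 with its brightest. Rps24, a small-subunit protein mutated in Diamond-Blackfan anaemia, gave 1.83 with the RefSeq probe and −0.81 and 0.23 with the other 2 probes. Rps6, the main phosphorylated protein of the small subunit and the substrate that names the S6 kinases, gave 0.78 ± 0.16 with its RefSeq probe. The other probe of Rps6 lies at chr4:86483199-86483258 and gave −0.89 ± 0.25, being well above background on 2 of 4 knockout saline arrays, against a RefSeq probe at chr4:86501886-86502077 (both minus strand). With the mean of probes the difference after saline did not pass for Rps6 (−0.0547, adjusted p = 0.791), Rps12 (0.11, adjusted p = 0.727) or Rpl21 (−0.30, adjusted p = 0.194).

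With all arrays in use, LPS left no ribosomal protein gene past the threshold in either genotype. In knockout, 0 of 78 were called after LPS by limma, against 2.5% of all genes called higher and 1.14% lower, and 4 had an unadjusted p under 0.05. In wild type 0 of 78 were called, against 0.00514% of all genes in each direction, and 1 had an unadjusted p under 0.05. That test used wild-type saline arrays 1 and 2 and called 0 of the 13 LPS-response genes, so it says little about the members. The knockout test called 12 of the 13. Without those 2 arrays the wild-type test called all 13 LPS-response genes higher. It then called 372 of all 19463 genes higher and 239 lower, and of the members 1, Rpl21, as given below. Over all genes 14.5% had an unadjusted p under 0.05 in knockout and 6.6% in wild type. In knockout 72 of 78 differences were below 0, as were 60.4% of all genes, with a median of −0.24 for the members and −0.09 for all genes. In wild type 56 of 78 were below 0, as were 56.4% of all genes, with medians of −0.08 and −0.04. All LPS arrays lay below all saline arrays for 2 members in knockout, Rpl13a and Rps9, against 6.16% of all genes, and for 2 in wild type, Rpl37a among them, against 2.86%.

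**Figure D5:**
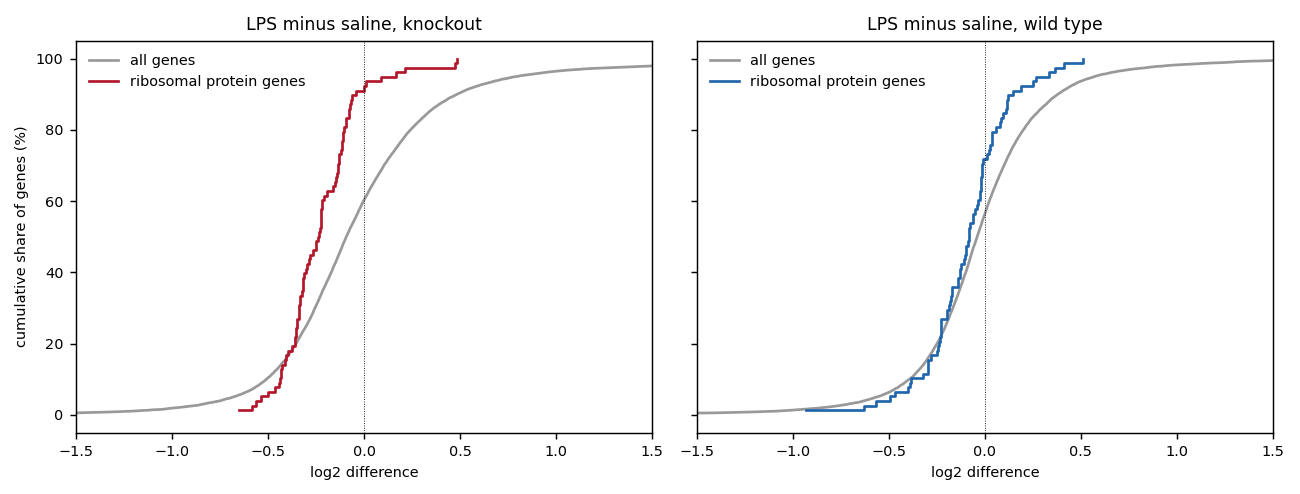
Cumulative share of genes (vertical axis, %) by their log2 difference, LPS minus saline (horizontal axis, shown between −1.5 and 1.5), in knockout on the left and in wild type on the right. Coloured steps are the 78 ribosomal protein genes and grey lines all 19463 genes. In knockout 72 of 78 members lie below 0, against 60.4% of all genes.

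The 4 members with an unadjusted p under 0.05 in knockout were Rpl37, Rpl13a, Rpl10 and Rpl22. Rpl37, a zinc-binding large-subunit protein, was at 4.44, 4.60, 4.51 and 5.31 in knockout LPS, against 5.62, 5.39, 5.06 and 5.13 in knockout saline, with overlap (log2 −0.58 ± 0.20, adjusted p = 0.159, limma). Without knockout LPS array 4 it was called lower, by 0.78 (adjusted p = 0.0251). Rpl13a was at 5.31, 5.51, 5.31 and 5.42 in knockout LPS and 5.76, 5.67, 5.56 and 5.79 in knockout saline (log2 −0.30 ± 0.13, adjusted p = 0.292). Rpl10 and Rpl22 differed by −0.56 and −0.46, with adjusted p of 0.269 and 0.33. Knockout saline array 1 was the highest array of its group for all 4 genes except Rpl13a.

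In wild type Rpl15, Rps27a, Rpl6 and Rps16 were among the members with the smallest p. Rpl15 was at 2.93, 2.63, 2.11 and 2.56 in wild-type LPS, against 3.44, 2.83, 3.18 and 2.76 in wild-type saline, with overlap (log2 −0.49 ± 0.22, unadjusted p = 0.0436, adjusted p = 0.741, limma). Rps16 had 1 wild-type LPS array, the third, at 4.67 and the others between 5.98 and 6.64, against 6.32, 6.37, 6.58 and 6.34 in wild-type saline. Without wild-type saline arrays 1 and 2 the median LPS difference in wild type was −0.22 and 1 member, Rpl21, was called and fell by 1.07 (adjusted p = 0.0304), in a fit that called 1.23% of all genes lower. No member passed the test of the LPS response between genotypes (limma, interaction), in which 0 of 78 had an unadjusted p under 0.05, against 6.9% of all genes, and the median was −0.13 (−0.03 for all genes). Among all genes 0.0257% were called higher and 0.0103% lower in that test. The smallest p among the members was that of Rpl37 (−0.55 ± 0.29, unadjusted p = 0.0723, adjusted p = 0.769). Without wild-type saline arrays 1 and 2 no member passed it either (limma), against 0.00514% of all genes, 1 member, Rps27a, had an unadjusted p under 0.05 (0.85, unadjusted p = 0.0389, adjusted p = 0.686), against 6.98% of all genes, and the median was −0.00038. Within slides, which each hold LPS and saline arrays of 1 genotype, the median LPS difference of the members was −0.16 and −0.28 on the knockout slides and −0.01 and −0.18 on the wild-type slides. The value of −0.01 is that of slide 1, which holds wild-type saline arrays 1 and 2, on which the LPS-response genes went against the label, with wild-type LPS arrays 1 and 3.

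All 7 further cytosolic ribosome genes measured were higher in knockout after saline and after LPS, with medians of 1.41 and 1.37. Without wild-type saline arrays 1 and 2, 6 of 7 were higher after saline (median 1.17). They include the stalk proteins Rplp0 (log2 1.88 ± 0.28 after saline) and Rplp1 (1.84 ± 0.19). Rack1, a scaffold on the small subunit, was higher by 1.29 ± 0.18. Of 14 translation factors and other mRNAs with an oligopyrimidine start, 10 were higher and 1 lower after saline, and 9 and 1 after LPS. The counts after saline were 7 and none without wild-type saline arrays 1 and 2, in a fit that called 19.8% of all genes higher and 16% lower. With all arrays 28.6% of all genes were called higher and 22.3% lower after saline, and 25.9% and 21.2% after LPS. The elongation factor Eef1a1 was 3.52 ± 0.75 higher after saline, with a wild-type saline spot left out as an outlier and an SD of 1.78 over the rest. The poly(A)-binding protein Pabpc1 was higher by 2.80 ± 0.82 and Tpt1 by 2.55 ± 0.28, while the elongation factor Eef2 fell by 0.75 (adjusted p = 0.00839, limma).

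Genes that build or regulate ribosomes were counted in the same fits, which called 28.6% of all genes higher and 22.3% lower after saline, and 25.9% and 21.2% after LPS. Of 20 ribosome biogenesis genes, 7 were higher and 3 lower after saline (median 0.37), and 7 and 2 after LPS. Tcof1, which serves transcription of ribosomal RNA genes, was higher by 1.84 ± 0.26, and the nucleolar proteins Ncl and Fbl were lower by 0.52 and 0.53. Of 12 genes of the mTORC1 and S6 kinase control, 3 were higher and 3 lower after saline. With wild-type saline arrays 1 and 2 left out, 19.8% of all genes were called higher and 16% lower. In that fit 4 biogenesis genes were higher and none lower (median 0.18). Of the mTORC1 and S6 kinase control, 1 gene was higher and 2 were lower. With all arrays, Larp1 differed after saline by 2.17 ± 0.21 and Mtor by 2.22 ± 0.63, while Eif4ebp2, a repressor of cap-dependent initiation, fell by 1.39. The wild-type saline arrays, with arrays 1 and 2 among them, had an SD of 1.38 for Mtor and 0.225 for Larp1. After LPS, Larp1 differed by 2.20 ± 0.21 and Mtor, at 0.59 ± 0.63, did not pass (adjusted p = 0.457). Rps6kb1, which encodes the main S6 kinase, did not pass the threshold in either genotype comparison (0.12 after saline, 0.35 after LPS). Of 10 genes named as S6 kinases, 3 were higher and 1 lower after saline, and none and 1 without wild-type saline arrays 1 and 2. Myc, a transcription factor that drives ribosome production, was higher after LPS in knockout (1.85 ± 0.31, adjusted p = 0.00331), the 1 call of its list in the LPS comparisons.

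Proteins of the mitochondrial ribosome are encoded by separate genes. Of 78 measured, 37 were higher and 6 lower after saline (median 0.46), and 40 and 5 after LPS (median 0.51), against medians of 1.25 and 1.03 for the cytosolic members. Among all genes 28.6% were called higher and 22.3% lower after saline, and 25.9% and 21.2% after LPS. After saline 28 were higher and 5 lower (median 0.42) without wild-type saline arrays 1 and 2, when 19.8% of all genes were called higher and 16% lower. Mrpl40 and Mrpl52 were higher after saline by 1.97 ± 0.27 and 1.94 ± 0.26, and Mrpl9 fell by 1.35.

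Marker genes of cell types and of neighbouring regions were counted in the same comparison, in which 28.6% of all genes were called higher and 22.3% lower after saline. Of 8 oligodendrocyte markers, none was higher and 6 were lower in knockout after saline, with mean levels on single arrays of 1.73 to 2.20 in knockout saline and 2.51 to 3.63 in wild-type saline. Of 8 striatum markers, none was higher and 5 were lower, with mean levels of −0.44 to −0.09 in knockout saline and 0.66 to 1.60 in wild-type saline. Of 7 hippocampus markers, none was higher and 4 were lower. Of 8 neuron markers 3 were higher and 1 lower, with mean levels of 4.53 to 4.71 in knockout saline and 3.71 to 4.33 in wild-type saline. Microglia gave 3 higher and none lower of 8, astrocytes 3 and 1 of 6, endothelium 2 and 1 of 6, choroid plexus none and 1 of 7, erythrocytes 1 and none of 2, and amygdala 2 and 1 of 7. With wild-type saline arrays 1 and 2 left out, 19.8% of all genes were called higher and 16% lower. In that fit 7 oligodendrocyte, 5 striatum, 5 hippocampus and 5 choroid plexus markers were lower and none of these higher. Microglia and neurons each gave 3 higher and 1 lower, amygdala 1 and 1, and astrocytes 2 and none. Endothelium gave none and 1, and erythrocytes none of either. All 8 oligodendrocyte and all 8 neuron markers were well above background on every array, as were 7 of the 8 striatum markers, Isl1 being the exception. The hippocampus marker Dsp, the microglia marker P2ry12, the endothelium marker Tek and 4 choroid plexus markers, Ttr among them, were below background on some arrays. The part of these shifts in the ribosomal protein values was not tested.

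The start of ribosomal protein transcripts was read from RefSeq (GRCm38.p6) as the 30 bases centred on the annotated start, 15 on each side, because the oligopyrimidine tract lies there. Start sequences matched 58 of the 78 genes, with 70 windows. The motif CTTTC, a pyrimidine run searched on the strand of the transcript only, was in 15 of the 70 windows (21.4%) and in 4.05% of the 32851 windows of all genes. Of these, 4 are shown, with the motif in capitals.
Rpl28: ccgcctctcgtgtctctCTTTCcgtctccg
Rpl35: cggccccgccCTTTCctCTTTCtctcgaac
Rpl38: agcggaagcctcgttCTTTCcccgttctct
Rps27: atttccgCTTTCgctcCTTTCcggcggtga
They lie at chr7:4792950-4792979 (plus strand), chr2:39005117-39005146 (minus), chr11:114668565-114668594 (plus) and chr3:90213634-90213663 (minus), all on GRCm38.p6. With all arrays, the 15 genes with the motif had a median difference between genotypes of 1.12 after saline and the 43 without it 1.36. The 20 genes with no matched start sequence had a median of 1.13. Rpl28, with the motif, differed by 0.05 ± 0.18, and Rpl38, also with it, by 1.61 ± 0.22, so genes with the same letters lay far apart. A match of letters is not evidence of a working tract, and RefSeq starts can lie some bases from the true start.

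The authors' deposited table of log2 group means held the brightest probe of 77 of the 78 genes. In it 72 were higher and 5 lower in knockout after saline (median 1.26), and 71 and 6 after LPS (median 1.04). Of all 24027 probes there, 11483 were higher and 12544 lower in knockout after saline (median −0.05). After LPS, 11405 were higher and 12622 lower (median −0.05). For LPS against saline, 7 were higher and 70 lower in knockout in the authors' deposited table (median −0.24), and 23 and 54 in wild type (median −0.08). Of all its probes 10232 were higher and 13795 lower in knockout, and 10673 and 13354 in wild type. The authors' deposited table of fold changes held 90 member probes, of which 78 were at least 2-fold up and 3 at least 2-fold down in knockout after saline, and 66 and 3 after LPS. Each of these 90 was at least 2-fold in some comparison, so the counts follow in part from which probes that table holds. The shares over all its probes were not counted. In that authors' deposited table Rpl29 probe 2 had the value 71.0 for knockout over wild type after saline, Rpl7a probe 3 had 58.9 and the brightest Rpl6 probe 10.1, all marked up.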

How the data were processed

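RNA from whole amygdala was hybridised to Agilent one-colour arrays. Per the submitters' processing notes the arrays were read with Agilent Feature Extraction 9.5. The deposited scanner files hold intensity on a linear scale, which, per the file headers, had its background subtracted and spatial trends removed array by array, without scaling across arrays. The authors also deposited log2 group means, whose scaling is not given in the sources used here, and a table of ratio values (linear fold changes between group means) with the direction in a separate column. The 32 per-array detection columns of these tables were not used.

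Here log2 of the processed intensity minus the array's 75th percentile was used. The 75th percentile ranged from 345.9 to 614.0 in knockout and from 581.3 to 1165 in wild type, and the number of arrays limits the precision. Control spots were dropped, spots marked as outliers (0 to 79 on an array) were treated as missing values, and saturation was not seen. Probes well above background on at least 3 of 4 arrays of a group were kept, and a gene was represented by its kept probe with the highest mean. A model of 4 group means over 16 arrays was fitted with limma 3.58.1 (R 4.3.3), tested on simulated data, with Benjamini-Hochberg adjustment of the p-values over all genes, probes or probe pairs, with calls at an adjusted p under 0.05. Tables and figures used Python 3.11.15, pandas 2.3.3, scipy 1.17.1 and matplotlib 3.10.9. Probe coordinates are those of the files (mm9). Replicate numbers did not pair arrays: over 24 same-numbered pairs the correlation of deviations ran from −0.38 to 0.34.

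The members, lists and named genes were chosen with earlier results of these data known. Named were up to 10 called members with the largest difference in each direction per comparison, all members called against the majority, paralogs with their parents, genes with probes called in opposite directions, and, where none was called, the 5 with the smallest p. Rps26, Rpl5, Rps3, Rpl37a, Rpl38, Rpl28, Rpl29, Rpl7a, Rpl9, Rpl13, Rpl14, Rpl17, Rpl27a, Rps4x, Rps18, Rps20 and Rps21, and single members of other lists, were named after their values were seen. Some genes that this rule names are not reported here by name. Alternatives were other scalings (quantile, median), normexp background, other filters and probe rules, correction for base composition or spike-in slope, slide and replicate blocks, single slides and left-out arrays.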

Additional observations from a re-analysis of the deposited data

Results flagged for a closer look

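Single arrays stood far from the other 3 of their group in 14 of 205 group values of 52 genes, judged by the gap to the nearest array over the range of the group, a rule by which chance marks about 1 in 20. Knockout saline array 1 stood apart for 6 genes. It was at 5.59 for Rpl10, against 4.64 to 4.69 on the other 3 arrays, at 6.81 for Rpl19, against 6.60 to 6.62, and at 5.77 for Rpl7, against 5.38 to 5.44. For Rpl28 it was at 5.39, against 4.71 to 4.76, and for Rpl5 it was low, at 5.63, against 6.08 to 6.13. For Rpl36al it was low as well, at 2.42, against 3.37 to 3.43. Knockout saline array 4 was low for Rps18, at 4.91, against 7.68 to 8.06, and for Rps20, at 4.86, against 7.35 to 7.55. Knockout saline array 2 was low for Rpl3, at 5.47, against 5.81 to 5.84. In knockout LPS, array 4 was low for Rpl3, at 5.49, against 5.80 to 5.83, and high for Rpl39, at 5.82, against 4.67 to 4.87, and for Rps27l, at 3.19, against 2.43 to 2.52. Knockout LPS array 3 was low for Rpl7l1, at −0.023, against 0.47 to 0.52. Wild-type saline array 2 was low for Rps9, at 2.20, against 2.91 to 3.03.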

How the results depend on the processing

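Genotype and scan session cannot be told apart, and 4 arrays per group limit every test. For knockout against wild type, the counts of members called higher lay between 49 and 66 under all alternatives but the spike-in slope correction (chosen after seeing the data), which gave 47 after saline and 32 after LPS, with 5 lower after LPS and medians of 0.75 and 0.57. Quantile scaling moved the medians to 0.71 after saline and 0.78 after LPS. With normexp background the median after saline was 0.82, where the median of all genes was 0.43, and 1 member was lower after LPS. The same background correction turned the median LPS difference in knockout to 0.056 (−0.22 for all genes) and that of the interaction to 0.15. The mean of probes left 1 member lower after saline and 1 after LPS, and called 1 member, Rps12, higher after LPS in knockout (adjusted p = 0.049). It also turned Rps3a to 1.46 after saline and 2.13 after LPS, and Rps6 to −0.0547 and −0.26. Quantile scaling turned Rps16 to −0.0249 after saline. Without wild-type saline arrays 1 and 2, 1 member was lower in knockout after saline, 1 was lower after LPS in wild type, and the LPS median there was −0.22. Leaving out single arrays gave 63 to 66 members higher and 2 to 3 lower after saline (medians 1.13 to 1.34) and 56 to 63 higher and 2 to 3 lower after LPS (medians 0.89 to 1.13). For LPS it gave 0 higher and 0 to 1 lower in knockout (medians −0.35 to −0.14), 0 called in wild type (−0.12 to −0.02) and 0 in the interaction (−0.21 to −0.06). With a replicate block 64 members were higher after saline and 61 after LPS, with medians of 1.25 and 1.03, and for 3 of 16 arrays the best correlation was with an array of the same number. Of 63 calls on named members, 26 lost the threshold or turned under at least 1 alternative, and the cause was not tested.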

Other observations

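The probe of Rps12 without a RefSeq accession at chr10:23506043-23506102 (mm9) had the largest LPS difference of the 133 member probes, and was chosen after its values were seen. It was at −2.53, −2.47, −2.60 and −2.80 on knockout LPS arrays, against −6.54, −4.05, −3.36 and −3.82 on knockout saline arrays, where it was well above background on 3 of 4. The difference was 1.84 ± 0.52 (adjusted p = 0.0754, limma) and did not pass the threshold. In wild type it was at −1.93, −2.17, −1.99 and −2.10 after LPS and −1.88, −1.35, −3.04 and −2.81 after saline, a difference of 0.22 ± 0.52. The highest of those saline arrays were 1 and 2, the arrays on which LPS-response genes went against the label. The RefSeq probe of Rps12 differed by −0.10 ± 0.26 in knockout and −0.06 ± 0.26 in wild type. Of the Rps9 probes, the one without a RefSeq mRNA accession differed by 0.85 ± 0.28 after LPS in knockout (adjusted p = 0.153), where the brightest Rps9 probe differed by −0.50 ± 0.40.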
